A study of Mus musculus with 18 samples.

Results

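The response of each gene to a mutant amyloid precursor was compared between microglia and astrocytes taken from the same mice. Of 24421 genes in the count tables, 12749 entered the comparison, because they had at least 10 raw counts in at least 4 libraries of each cell type, so that a response could be measured in both. The material was RNA of microglia and astrocytes that were sorted from whole brain of 9 C57BL/6j mice by flow cytometry, in 18 libraries. In 4 WT mice the App gene was unaltered (replicate 1 female, replicates 2 to 4 male), and 5 mice carried the homozygous APP_NLGF/NLGF knock-in (replicate 1 male, replicates 2 to 5 female). The knock-in places a humanised precursor with mutations of familial Alzheimer's disease in the native App gene, so it is not limited to a cell type by a transgene promoter. All mice of both genotypes carry the label C3WT. The sources used here give no age. Brains were perfused, digested with enzymes and freed of myelin before antibody staining, with dead cells marked by DAPI, and those antibodies are not named in the labels.

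Microglia are the resident macrophages of the brain, and around amyloid plaques they leave their homeostatic state, take up lipid and lysosomal cargo and raise a set of genes known from disease models. Astrocytes supply neurons and microglia with cholesterol carried on apolipoprotein E. Cholesterol synthesis is switched on by SREBP2, a transcription factor that is held back by INSIG1 when membranes hold enough sterol. FABP5 is a small cytosolic carrier of fatty acids, and HMGCS1 makes HMG-CoA, an early intermediate of cholesterol synthesis.

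Levels are given as CPM, the counts scaled to a common library total of the tested genes, with TMM scaling over the 18 libraries. A response is the log2 fold change of APP over WT mice within a cell type, and the difference is the response in microglia minus that in astrocytes, so a positive difference means a higher response in microglia. Both were tested with edgeR's quasi-likelihood F-test with Benjamini-Hochberg adjustment over the 12749 genes, and the threshold for a call was an adjusted p of 0.05. The fit of the difference held the mouse as a block and modelled the effect of sex on the difference. Each response was fitted on the 9 libraries of its cell type, with sex and no block, because genotype is a property of the mouse. Total counts per library ranged from 8834866 to 18363154 in microglia and from 10569776 to 22522407 in astrocytes. The 12 microglia markers summed to 41297 to 49686 CPM in microglia libraries, against 109 to 155 CPM in WT and 355 to 488 CPM in APP astrocyte libraries. The 12 astrocyte markers summed to 33616 to 42404 CPM in WT and 27383 to 31821 CPM in APP astrocyte libraries, and to 474 to 2025 CPM in microglia libraries. In astrocytes 10 of these 12 were called lower in APP mice (median response -0.67). Without WT replicate 1 the number was 0, and 4 with the sex term dropped too. The part of this in other astrocytic falls was not tested. Every marker of both lists had counts in every library. Taking the microglia markers as carried over from microglia gave an estimate of the microglial RNA in astrocyte libraries. It was 0.131% ± 0.0489 (SD, n = 4) in WT and 0.813% ± 0.124 (SD, n = 5) in APP mice, and so differed with the genotype. Whether the astrocytes themselves expressed these markers was not tested. Marker sums are per total counts, with no TMM scaling. In bulk libraries a change in the number of cells of a type and a change in RNA per cell cannot be told apart. Endothelial markers summed to 411 to 3326 CPM in WT and 2682 to 4403 CPM in APP astrocyte libraries, the lowest being WT replicates 1 and 4. In astrocyte libraries mural markers summed to 878 to 2762 CPM in WT and 3013 to 3612 CPM in APP mice, without overlap. Oligodendrocyte markers summed to 584 to 828 CPM and 776 to 4376 CPM, the highest being APP replicate 4. Precursor markers of oligodendrocytes were lower in APP mice, at 1305 to 1491 CPM and 1026 to 1225 CPM. The part of these cells in the astrocytic responses was not tested.

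The responses of the cell types differed in 3114 of 12749 genes (24.4%), of which 1520 (11.9%) were higher and 1594 (12.5%) lower in microglia. For 2655 of these the microglia minus astrocyte values of all 5 APP mice lay on the called side of all 4 WT mice; over all genes tested, 13.4% had all APP mice above and 15.1% below. The difference was called and at least 2-fold in 602 genes that were higher and 818 that were lower. In 208 genes (1.63%) the level rose in microglia and fell in astrocytes, and in 225 (1.76%) it fell in microglia and rose in astrocytes. In another 788 of the genes higher in microglia only the microglial rise was called, and in 295 only the astrocytic fall. Among genes called in each cell type with no called difference, 404 rose and 312 fell in both, which leaves the size of any difference below what the test could call. WT replicate 1 is the only WT female and its mouse carries much of the separation of genotype from sex: without it 567 genes differed, and 3120 differed when it was left out together with the sex term. The astrocyte calls rest on it most, since without it 32 genes rose and 4 fell in astrocytes, against 1566 (12.3%) and 1721 (13.5%) with it, and 530 rose and 573 fell when the sex term was dropped too. In microglia 2345 genes (18.4%) rose and 2406 (18.9%) fell, and 1453 and 997 did without that mouse. Without WT replicate 1 all WT mice left are male, while 4 of 5 APP mice are female. In fits that drop the sex term too, an effect of sex therefore enters the genotype response, and the parts cannot be told apart. This holds for every such count in this report, so none shows that a call is free of sex.

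**Figure D1:**
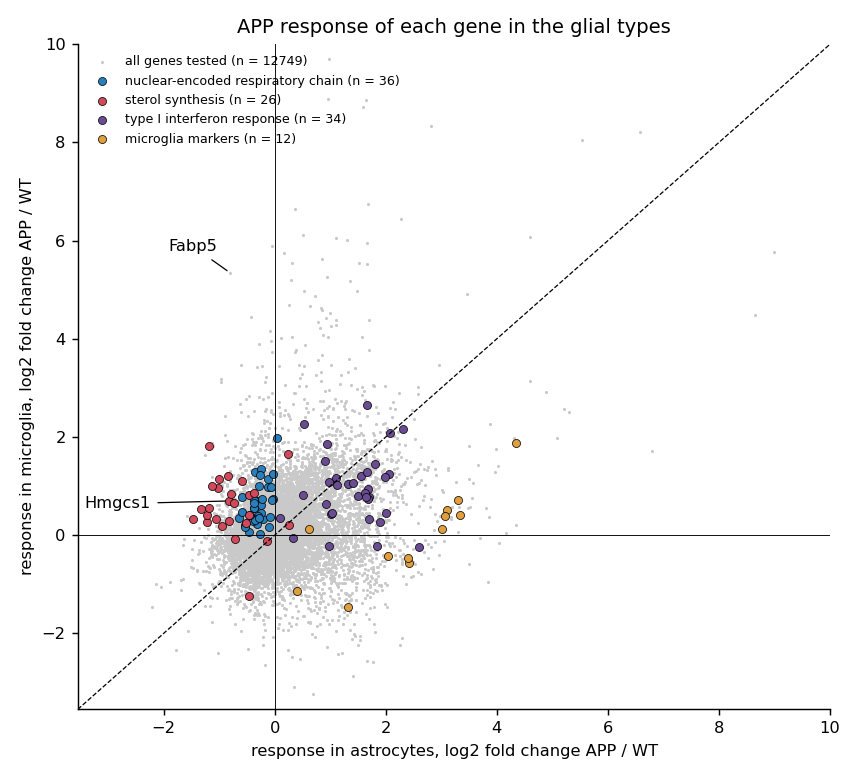
Log2 fold change of APP over WT in astrocytes (horizontal) and in microglia (vertical) for the 12749 genes (grey), with 4 gene lists in colour; on the dashed line the responses are equal. Sterol synthesis genes lie mostly in the upper left quadrant, interferon genes to the upper right and microglia markers to the far right, and Fabp5 stands at 5.35 in microglia and -0.80 in astrocytes.

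Fabp5 (chr3:10012585-10016610, GRCm38.p6) had a difference of 6.22 (SE 0.40, 95% interval 5.32 to 7.12, adjusted p = 3.66e-05). In microglia its level was 1.67, 4.31, 2.89 and 1.76 CPM in the WT mice and 99.3, 112, 98.7, 101 and 143 CPM in the APP mice. In astrocytes it was 93.2, 73.5, 66.8 and 104 CPM in the WT mice and 48.5, 44.1, 49.1, 54.4 and 58.0 CPM in the APP mice. The groups did not overlap in either cell type, and the directions were opposite: a gene that WT astrocytes held far above WT microglia was higher in microglia than in astrocytes in every APP mouse. The microglial rise was 5.35 (adjusted p = 3.75e-08) and the astrocytic fall -0.80 (adjusted p = 0.0121). Without WT replicate 1 the difference was 5.79 and the astrocytic value -0.76 was not called (adjusted p = 0.214). With the sex term dropped too the astrocytic value was -0.69 (adjusted p = 0.0294). Astrocyte RNA was estimated at 1.11%, 5.18%, 3.40% and 1.69% of the counts in the WT microglia libraries, and its part in their low Fabp5 level was not tested. After subtraction of the estimated RNA of the other cell type the difference was 8.78 (SE 0.33), above the interval given here. WT microglia held only 15, 49, 25 and 19 raw counts of Fabp5 before the subtraction, which lowers them further and stops at 0. The value of 8.78 thus rests on WT counts near the floor. Its SE does not hold the error of the estimated share, so it is no measure of a larger difference.

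Genes that carry fatty acids, coat lipid droplets, and store or export sterol were split: 10 of 22 had a called higher response in microglia and 6 a lower one, with a median difference of 0.69 (median of all genes -0.00). Fabp3, a related carrier, stood at a mean of 0.205 CPM in WT and 11.0 CPM in APP microglia, with a difference of 5.27. Lpl, the lipase that frees fatty acids from lipoproteins, rose in both cell types, by 5.52 in microglia and 1.66 in astrocytes, with a difference of 3.80. Apoe, the main apolipoprotein of the brain, showed 644, 867, 822 and 572 CPM in WT and 7401, 9520, 6295, 7817 and 6187 CPM in APP microglia. In astrocytes Apoe was at 4601, 3755, 3530 and 4745 CPM in WT and 3579, 3131, 3428, 3106 and 3751 CPM in APP mice. The microglial groups were far apart while the astrocyte groups overlapped, and the difference was 3.73 (SE 0.36, adjusted p = 0.000256) with an astrocytic value of -0.31 (interval -0.65 to 0.02). Soat1, which esterifies cholesterol for storage, rose by 0.96 in microglia and fell by 0.58 in astrocytes, and Nceh1, which hydrolyses cholesteryl esters, had a difference of 2.62. The droplet coats Plin2 (1.25) and Plin3 (1.44) and the lysosomal sterol handlers Npc2 (1.25) and Lipa (0.81) were also higher in microglia. On the other side were Cd36, a fatty acid receptor (-2.91), Acsl1, which activates fatty acids (-1.50), and Lpcat2, an acyltransferase of membrane lipids (-1.72). The list without WT replicate 1 had 8 higher and 0 lower members, Plin2 (0.75, adjusted p = 0.0529) and Plin3 (1.14, adjusted p = 0.0620) being the higher ones lost, and Cd36, Acsl1 and Lpcat2 stood at -2.65, -1.23 and -1.83. Those last 3 were not called without APP replicate 1 either, at -3.21, -1.67 and -1.52 (adjusted p = 0.128, 0.0540 and 0.0931).

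**Figure D2:**
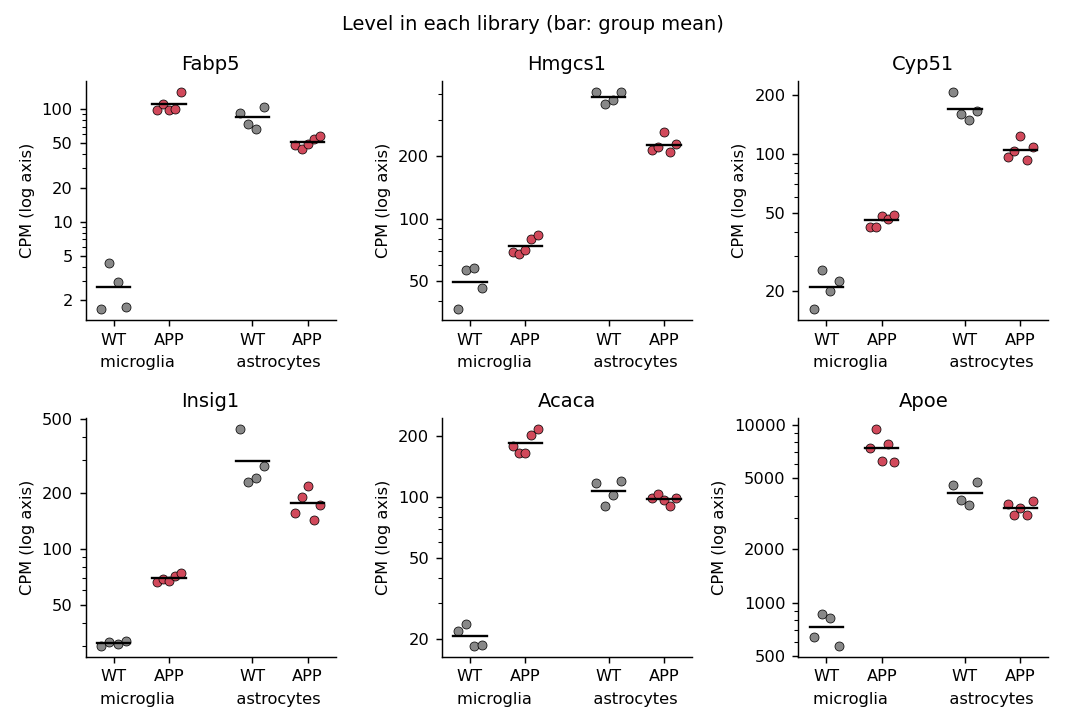
Level of 6 lipid genes in each library, in CPM on a log axis, by cell type and genotype (grey WT, red APP, bars are means of 4 WT and 5 APP libraries). In all 6 the APP microglia lie above the WT microglia, and in Fabp5, Hmgcs1, Cyp51 and Insig1 the APP astrocytes lie below the WT astrocytes.

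Of 26 sterol synthesis genes 22 had a higher response in microglia and 0 a lower one, with a median difference of 1.46, and 21 were called with all APP mice above all WT mice. In microglia 14 rose and 1 fell, in astrocytes 0 rose and 21 fell, and 13 did both. Without WT replicate 1, 10 of 26 differences and 0 of the astrocytic falls were called, with a median difference of 1.17; with the sex term dropped too, 21 differences and 19 astrocytic falls were. The list median of each mouse, relative to the WT mean, was 0.40 to 0.62 in the microglia and -0.89 to -0.58 in the astrocytes of APP mice, against -0.22 to 0.17 and -0.18 to 0.15 in WT mice. After subtraction of the estimated RNA of the other cell type 22 of 26 differences were called, with a median of 1.73.

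The upstream windows of some of these genes are shown because sterol genes are known to pair a sterol element with a CCAAT box bound by NF-Y. The 250 bases before the RefSeq start (GRCm38.p6) were searched on both strands for CCAAT and for TCACNCCAC, an exact form of the sterol element, and matches are in capitals:
Hmgcs1 (chr13:119690101-119690350, plus strand): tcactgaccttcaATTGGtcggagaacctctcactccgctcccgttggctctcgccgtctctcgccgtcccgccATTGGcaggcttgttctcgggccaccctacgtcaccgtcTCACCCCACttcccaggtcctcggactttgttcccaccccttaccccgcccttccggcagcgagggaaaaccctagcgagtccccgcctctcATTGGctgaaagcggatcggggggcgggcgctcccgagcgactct
Insig1 (chr5:28071162-28071411, plus strand): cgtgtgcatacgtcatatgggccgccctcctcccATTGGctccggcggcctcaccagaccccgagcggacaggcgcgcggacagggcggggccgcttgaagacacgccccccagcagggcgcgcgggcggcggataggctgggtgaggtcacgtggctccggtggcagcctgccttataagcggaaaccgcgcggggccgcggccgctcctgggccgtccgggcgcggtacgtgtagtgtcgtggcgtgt
Cyp51 (chr5:4104698-4104947, minus strand): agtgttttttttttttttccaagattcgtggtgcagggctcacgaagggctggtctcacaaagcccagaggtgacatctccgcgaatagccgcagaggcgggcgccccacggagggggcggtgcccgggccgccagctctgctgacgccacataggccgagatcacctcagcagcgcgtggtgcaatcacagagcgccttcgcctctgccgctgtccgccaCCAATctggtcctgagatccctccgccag
In Hmgcs1 there were 3 CCAAT matches, all on the opposite strand and so reading ATTGG, and 1 TCACCCCAC. CCAAT was present in 16 of 18 sterol genes with a window (88.9%), against 40.2% of the 9755 tested genes with one, and TCACNCCAC in 1 of 18, against 1.27%. These are matches of letters in this window, and no binding was measured.

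Among the regulators, Srebf2, which encodes SREBP2, had a difference of 1.29, with a rise of 0.82 in microglia and a fall of 0.47 in astrocytes. Insig1, its retention factor and itself a target, was at 30.0, 31.5, 30.5 and 31.7 CPM in WT and 66.1, 68.8, 66.8, 71.6 and 74.0 CPM in APP microglia. In astrocytes Insig1 was at 446, 231, 242 and 281 CPM in WT and 155, 190, 217, 143 and 173 CPM in APP mice. The difference was 2.16 (SE 0.22, adjusted p = 0.000340), and the WT astrocyte value of replicate 1 lay well above the others. Scap, the escort of SREBP2, did not differ detectably (0.02, adjusted p = 0.936). Stard4, a sterol carrier, rose by 1.65 in microglia and stood at 0.24 in astrocytes (not called), with a difference of 1.42.

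At the entry of the pathway Hmgcs1 (chr13:119690351-119708260) was at 36.5, 56.5, 58.0 and 46.0 CPM in WT and 68.7, 67.3, 70.9, 79.9 and 83.4 CPM in APP microglia. In astrocytes it was at 408, 359, 377 and 410 CPM in WT and 215, 223, 262, 209 and 228 CPM in APP mice. The groups were separate in both, in opposite directions, and the difference was 1.54 (SE 0.21, interval 1.06 to 2.01, adjusted p = 0.00133). The microglial rise was 0.70 and the astrocytic fall -0.82 (adjusted p = 0.00222 and 0.00239), and without WT replicate 1 the difference was 1.19 (adjusted p = 0.0481) and the astrocytic value -0.83 was not called (adjusted p = 0.0945). Of the enzymes that turn mevalonate into isoprenoids and squalene, Mvk (0.87), Pmvk (1.24), Mvd (1.78), Idi1 (1.97), Fdps (1.64) and Fdft1 (1.63) were all called. Acat2, which makes acetoacetyl-CoA, was not (0.65, adjusted p = 0.0521); it was called without WT replicate 3 (0.82) and without APP replicate 1 (1.06).

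From squalene to cholesterol, Sqle (1.41), Lss (0.76), Cyp51 (2.06), Tm7sf2 (1.15), Msmo1 (1.86), Nsdhl (1.11), Hsd17b7 (1.73), Sc5d (1.72) and Dhcr7 (2.12) were higher in microglia. Cyp51, the lanosterol demethylase, rose by 1.2 in microglia and fell by 0.84 in astrocytes. Ebp, the isomerase between them, showed -0.05 (adjusted p = 0.892). Among the genes of the list whose call was lost without WT replicate 1 were Srebf2, Mvk, Pmvk, Mvd, Idi1, Sqle, Lss, Tm7sf2, Msmo1, Nsdhl and Stard4, with values from 0.56 (Sqle) to 1.45 (Msmo1).

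**Figure D3:**
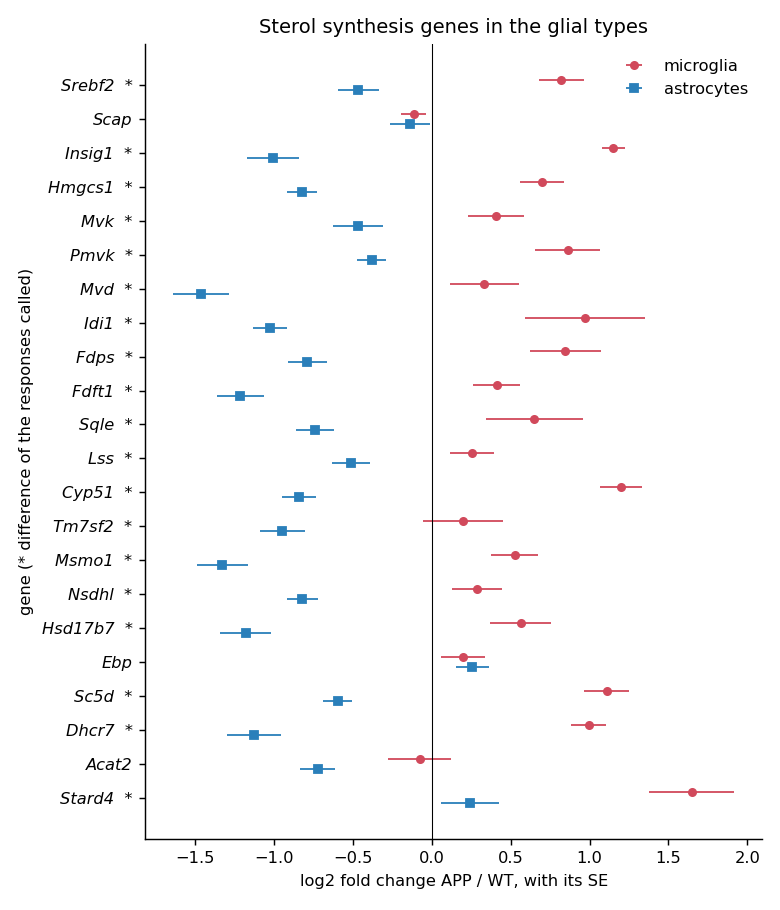
Log2 fold change of APP over WT for 22 of the 26 sterol synthesis genes, regulators first and then enzymes, with red circles for microglia, blue squares for astrocytes and bars for 1 SE. Asterisks mark the 19 genes whose responses were called different; the red circle lies to the right of the blue square in each of them.

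Fatty acid synthesis followed this pattern only in part, with 6 higher and 0 lower of 18 genes and a median difference of 0.68. Acaca, which makes malonyl-CoA and commits acetyl-CoA to fatty acids, stood out with a difference of 3.29 (SE 0.22, adjusted p = 3.66e-05). It was at 21.9, 23.8, 18.5 and 18.8 CPM in WT and 180, 165, 166, 203 and 219 CPM in APP microglia. In astrocytes it was at 118, 91.0, 103 and 120 CPM in WT and 99.5, 104, 96.8, 90.8 and 99.9 CPM in APP mice. The astrocyte groups overlapped, with a value of -0.17 (interval -0.41 to 0.06). Srebf1, which encodes the regulator of this pathway, and the elongase Elovl5 had differences of 1.04 and 0.96, at 0.64 and 0.59 and not called without WT replicate 1 (adjusted p = 0.373 and 0.336). Without that mouse 1 gene of the list was called and the median was 0.14; with the sex term dropped too it was -0.01, so the median had no stable sign.

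Energy metabolism also diverged. Nuclear-encoded subunits of the respiratory chain were higher in microglia in 32 of 36 genes and lower in 0, with a median difference of 0.89. They rose in microglia in 27 and fell in astrocytes in 16 genes, and 10 did both. Cox5a, a subunit of cytochrome c oxidase, was at 11.4, 17.3, 15.1 and 16.7 CPM in WT and 24.3, 20.6, 24.9, 22.1 and 24.1 CPM in APP microglia, and at 53.2, 55.8, 49.5 and 58.9 CPM in WT and 33.1, 38.7, 34.5, 38.2 and 43.3 CPM in APP astrocytes. The genotypes were separate in both cell types, and the difference was 1.38 (SE 0.14, adjusted p = 0.000353). Uqcrfs1 and Uqcrh of complex III (1.05 and 1.65) and Atp5o of ATP synthase (1.03) showed the same direction. When WT replicate 1 was left out, 6 of 36 differences and 0 astrocytic falls were called (median 0.59); with the sex term dropped too, 31 and 10 were.

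Of 25 genes of glycolysis and the hypoxia response 18 were higher in microglia and 1 lower, with a median difference of 1.38; 20 rose in microglia, while 2 rose and 9 fell in astrocytes. Tpi1, a glycolytic isomerase, was at 62.0, 63.6, 65.4 and 54.2 CPM in WT and 185, 231, 242, 274 and 333 CPM in APP microglia. In astrocytes it was at 272, 238, 227 and 298 CPM in WT and 176, 176, 174, 185 and 209 CPM in APP mice. Tpi1 moved in opposite directions, with a difference of 2.40 (SE 0.20, adjusted p = 0.000114), and Gpi1 did likewise (1.95). Hif1a, the oxygen-regulated transcription factor, rose by 2.52 in microglia and stood at -0.06 in astrocytes (interval -0.33 to 0.21). Egln3, a prolyl hydroxylase that marks HIF proteins for degradation, had a difference of 4.97, and the cytokine Mif one of 2.51. Vegfa, a vascular growth factor, rose by 1.88 in microglia and fell by 1.14 in astrocytes. Hk2, the first enzyme of glycolysis, was the lower one (-0.85); without WT replicate 1 it was at -0.63 (adjusted p = 0.217), Vegfa at 2.33 (adjusted p = 0.0620), and the list had 12 higher and 0 lower, with 0 astrocytic falls.

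Cytosolic ribosomal protein genes rose in microglia in 36 of 36 cases and in astrocytes in 31, with medians of 1.19 and 0.57. The astrocytic rises were called with all mice and the sex term, and fell to 0 of 36 without the sex term, without WT replicate 1, or without both. The rise was larger in microglia in 22 genes and smaller in 0. Rps2 had the lowest adjusted p of the list (0.00281), with a rise of 1.29 in microglia and 0.39 in astrocytes, and Rpl5 rose by 1.37 and 0.64. No difference of the list was called by edgeR without WT replicate 1 (0 of 36, median 0.41, Rpl5 0.76 and Rps2 0.80), whereas 31 were with the sex term dropped too. Of 38 lysosome genes 25 were higher in microglia and 3 lower, with a median difference of 0.80 and medians of 0.77 in microglia and -0.08 in astrocytes. Ctsd, which encodes the protease cathepsin D, was at 7753, 8382, 8254 and 8445 CPM in WT and 23587, 22221, 22195, 22559 and 27735 CPM in APP microglia. In astrocytes it was at 793, 642, 591 and 835 CPM in WT and 730, 674, 772, 723 and 763 CPM in APP mice, so the genotypes overlapped there, and the difference was 1.56. Ctsl, a further cathepsin, and Cd63, a membrane protein of late endosomes, had differences of 1.95 and 2.25. The 3 lower genes, Ctss (-2.65), Cd68 (-1.33) and Laptm5 (-2.69), are largely restricted to microglia, with astrocyte levels of 0.673%, 0.818% and 0.849% of the microglial ones in APP mice. Cd68 was at -0.90 and not called without APP replicate 1 (adjusted p = 0.122), and at 0.93 when the estimated RNA of the other cell type was subtracted. When WT replicate 1 was left out, 14 genes were higher and 3 lower, and Ctsd was at 1.40 (adjusted p = 0.0876).

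The Ctsd window is shown because lysosomal genes are known to share the CLEAR element, bound by TFEB. The element TCACGTGA, which reads the same on both strands, is in capitals in the 250 bases before the RefSeq start:
Ctsd (chr7:142387828-142388077, minus strand): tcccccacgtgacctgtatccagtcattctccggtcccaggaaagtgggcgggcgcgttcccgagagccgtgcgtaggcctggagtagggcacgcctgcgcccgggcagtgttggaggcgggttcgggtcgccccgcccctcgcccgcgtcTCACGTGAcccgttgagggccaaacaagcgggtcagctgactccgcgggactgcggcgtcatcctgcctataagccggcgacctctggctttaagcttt
It was present in 5 of 30 lysosome genes with a window (16.7%), against 1.77% of the tested genes.

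**Figure D4:**
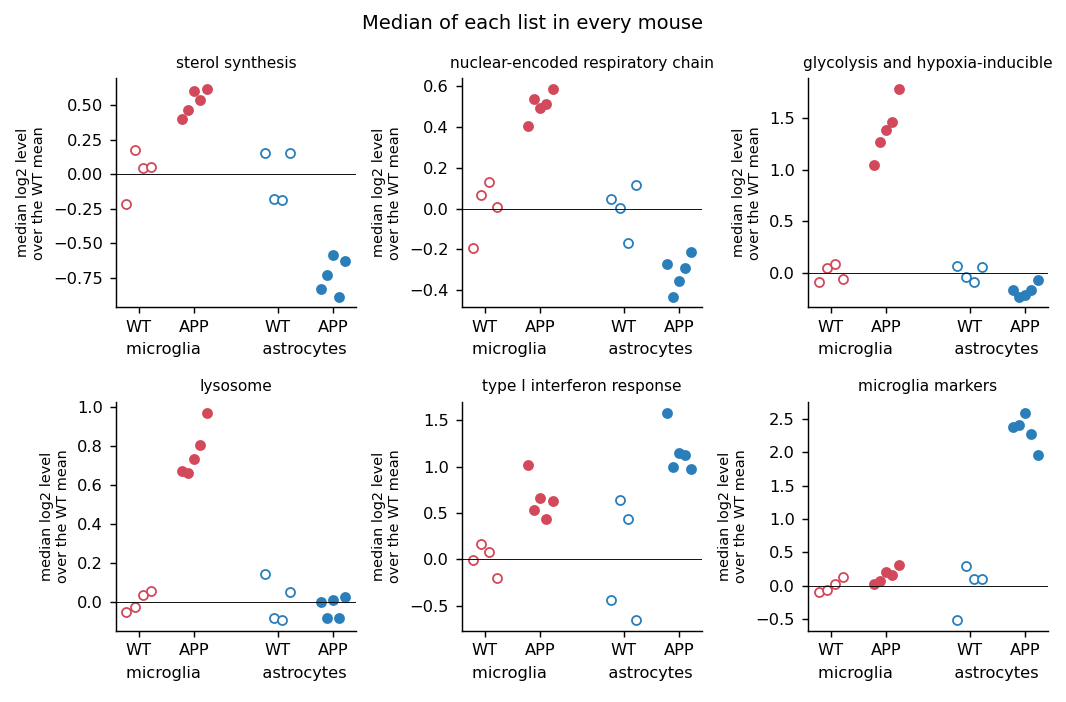
Median log2 level of 6 gene lists in each mouse, relative to the mean of the WT mice, for microglia (red) and astrocytes (blue), open for WT and filled for APP. Sterol and respiratory chain medians are above all WT mice in APP microglia and below them in APP astrocytes, while the microglia markers lie 1.97 to 2.60 above the WT mean in APP astrocytes.

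Genes known to rise in microglia near plaques did so here in 28 of 28 cases, with a median of 1.88 in microglia and 0.52 in astrocytes; 20 differences were higher and 6 lower. The 10 monocyte and neutrophil markers summed to 256 to 337 CPM in WT and 779 to 1113 CPM in APP microglia; nearly all of this was Lyz2, which microglia also express, and without it the sums were 29.9 to 38.8 CPM in WT and 13.2 to 17.9 CPM in APP mice. Axl, a receptor tyrosine kinase for the clearance of dead cells, rose by 3.44 in microglia and stood at -0.22 in astrocytes (interval -0.45 to 0.00). Csf1, the growth factor that sustains microglia, was at 75.4 to 118 CPM in WT and 1709 to 2103 CPM in APP microglia and at 96.9 to 143 CPM and 111 to 136 CPM in the astrocytes, with a difference of 4.24. Ank, a pyrophosphate transporter, had a difference of 4.03. Cadm1, an adhesion molecule, was at 184, 177, 200 and 184 CPM in WT and 478, 451, 472, 538 and 586 CPM in APP microglia. In astrocytes Cadm1 was at 875, 640, 607 and 770 CPM in WT and 383, 417, 406, 447 and 460 CPM in APP mice, the opposite direction with no overlap. The 6 members with a lower difference stood in APP astrocytes at 0.57% to 0.82% of the microglial level. Leaving out WT replicate 1 gave 13 higher and 4 lower. After subtraction of the estimated RNA of the other cell type, 21 genes were tested, and 19 differences were higher and 0 lower. The median astrocytic response of these 21 was then -0.03, and 5 genes rose in astrocytes, against 14 of 28 with no subtraction. The share subtracted in APP astrocytes was 0.643% to 0.943%, about the level of the 6 members with a lower difference. Genes at that level are taken to near 0 and can fail the count filter. The count of 0 lower was thus largely set by the procedure.

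Homeostatic genes went the other way, with 0 higher and 16 lower of 20 and a median difference of -2.31; 16 fell in microglia and 13 rose in astrocytes. In APP mice 9 of the 20 stood in astrocytes at under 2% of the microglial level, and after subtraction of the estimated microglial RNA 8 of 14 differences were lower, with a median of -0.81, and 3 genes rose in astrocytes. Without WT replicate 1, 12 of 20 differences were lower and 4 genes rose in astrocytes. Tmem119 and the purinergic receptor P2ry12 fell by 1.47 and 1.13 in microglia, and the fractalkine receptor Cx3cr1 by 0.57. Among the 12 microglia markers 11 differences were lower, and C1qa, a chain of the complement starter C1q, was among them. It was at 2672, 2664, 2912 and 3075 CPM in WT and 3399, 3827, 4118, 3624 and 4279 CPM in APP microglia. In astrocyte libraries C1qa was at 2.73, 3.57, 3.21 and 3.77 CPM in WT and 33.6, 30.7, 32.8, 28.1 and 27.4 CPM in APP mice. Thus the larger fold stood in the libraries with the lower level, with a difference of -2.95 (SE 0.19, adjusted p = 3.66e-05). The median astrocyte level of the 12 markers was 0.683% of the microglial one in APP mice, and the share of microglial RNA in those libraries, estimated from the same markers, was 0.643% to 0.943%. When that share was subtracted, 5 of the 12 markers passed the count filter and 1 was lower, and C1qa was at -3.53 (adjusted p = 0.167). Because the share comes from these markers, their loss was largely set by the procedure. Over all genes, 135 of the 1594 lower differences had an astrocyte level under 2% of the microglial one, against 6 of the 1520 higher ones.

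Of 34 interferon genes 27 rose in microglia (median 0.89) and 27 in astrocytes (median 1.59). Among their differences 2 were higher and 5 lower, a share near the 24.4% called in either direction over all genes tested. Leaving out WT replicate 1 gave 24 rises in microglia and 0 in astrocytes, where 12 were called with the sex term dropped too. Ifit1, a sensor of viral RNA, was at 3.90, 5.81, 3.70 and 2.40 CPM in WT and 8.12, 5.04, 6.11, 4.95 and 5.98 CPM in APP microglia. In astrocytes it was at 9.14, 26.4, 21.7 and 6.70 CPM in WT and 47.2, 29.6, 40.9, 31.7 and 49.6 CPM in APP mice, and WT replicates 1 and 4 were low. Its difference of -0.91 was not called (adjusted p = 0.0585); it was without WT replicate 3 (-1.0) and without APP replicate 1 (-1.46). Lgals3bp, a secreted glycoprotein, rose more in microglia (1.73), as did Ifit2 (0.59). The 5 lower genes were Slfn8 (-2.67), Parp14 (-2.15), Trim30a (-1.68), Ifi35 (-1.35) and the RNA sensor Ddx58 (-1.24). Of these only Lgals3bp was called without WT replicate 1, Slfn8 being at -1.89, Parp14 at -1.28, Trim30a at -0.71, Ifi35 at -0.76, Ddx58 at -1.03 and Ifit2 at 0.71. Ifit2 was also not called without APP replicate 1 (0.53), Ifi35 not without APP replicates 2 or 3 (-1.31 and -1.29), and Trim30a not without APP replicates 2 to 5 (-1.56 to -1.70).

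Of 16 genes of class I antigen presentation 11 rose in microglia (median 0.78) and 11 in astrocytes (median 0.92). These counts were 10 and 0 without WT replicate 1, and 11 and 8 with the sex term dropped too. H2-K1 was the gene called, with a rise of 1.50 in microglia, 0.61 in astrocytes and a difference of 0.89; for H2-D1 the difference was 0.47 (adjusted p = 0.243). Of 18 complement genes 1 was higher and 8 lower (5 without WT replicate 1, and 1 of 11 after subtraction of the estimated RNA of the other cell type). In APP astrocytes 7 of the 18 were at under 2% of the microglial level, and the microglia markers C1qa and its partners are among the lower. Cfb, an enzyme of the alternative pathway, had a difference of 1.62, and was not called without WT replicate 1 (1.68, adjusted p = 0.111) or APP replicate 1 (1.57, adjusted p = 0.178). C4b rose in astrocytes by 1.09 and stood at 0.46 in microglia (adjusted p = 0.0546), a difference of -0.65 that was not called when WT replicate 1 or 3 or APP replicate 2, 3 or 5 was left out (-0.64 to -0.35). Reactive astrocyte genes rose in 12 of 25 cases in microglia libraries and in 16 in astrocytes. Their differences were higher in 0 and lower in 6 cases, against 11.9% and 12.5% over all genes tested. When WT replicate 1 was left out, 2 differences were lower and 0 genes rose in astrocytes, and 8 rose there with the sex term dropped too. Gfap, the intermediate filament of reactive astrocytes, rose by 1.43 in astrocytes, with a mean of 115 CPM in WT and 298 CPM in APP mice, and its difference of 1.07 was not called (adjusted p = 0.159). Ggta1, a galactosyltransferase on this list, fell by 1.94 in microglia and stood at 0.24 in astrocytes, with a difference of -2.18.

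The genes with the largest differences, at a mean of at least 5 CPM in each cell type and with separate mice, were chosen from 2126. On the higher side Gpnmb, a lysosomal glycoprotein, went from 0 to 1.76 CPM in WT to 643 to 940 CPM in APP microglia, and from 4.27 to 8.89 CPM to 10.3 to 21.3 CPM in astrocytes, with a difference of 9.18. It was followed by the matrix protein gene Mamdc2 (7.58), Fabp5, the secreted phosphoprotein gene Spp1 (4.99), Egln3, the actin nucleator subunit gene Actr3b (4.96), Ctnna3 (4.79), the transcription factor gene Sox7 (4.42), Csf1 and the lysyl oxidase gene Lox (4.19). On the lower side were Ccdc162 (-4.63), Pecam1 (-4.44), Stab1 (-3.80), Tmem204 (-3.75), Col6a3 (-3.66), Mboat1 (-3.61), Nhsl2 (-3.51), Serpinf1 (-3.49), Mycl (-3.41) and Itga9 (-3.40). Pecam1 is an endothelial marker and Stab1 a scavenger receptor of border macrophages, and both fell in microglia, by 2.57 and 1.81. The endothelial markers as a list did not fall there. The 12 summed to 64.7 to 94.7 CPM in WT and 122 to 165 CPM in APP microglia. Their median response in microglia was 0.96, with 1 called up and 1 down. The 12 border macrophage markers summed to 1708 to 1973 CPM in WT and 356 to 653 CPM in APP microglia. The sum was not taken without Stab1, which alone averaged 1406 CPM in WT and 389 CPM in APP microglia with TMM scaling, so it is not separate from the fall of Stab1. Of the 6 marker differences that could be tested 5 were lower (1 without WT replicate 1). The part of border macrophages in these falls was not tested. Without WT replicate 1 Ccdc162 (-2.77), Pecam1 (-3.34), Stab1 (-2.70) and Nhsl2 (-2.71) were not called (adjusted p = 0.0819, 0.144, 0.127 and 0.0595).

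Beside Fabp5 the genes with opposite calls and the lowest p were Gng12, Arhgap24, Fgf13, Bhlhe40, Cadm1, Echs1 and Psat1, which rose in microglia and fell in astrocytes. Gng12, a G protein subunit, was at 65.5, 63.4, 70.5 and 66.6 CPM in WT and 221, 207, 216, 251 and 269 CPM in APP microglia, and at 226, 195, 183 and 240 CPM in WT and 138, 134, 132, 172 and 146 CPM in APP astrocytes. The transcriptional repressor Bhlhe40 had a difference of 4.11, the intracellular fibroblast growth factor Fgf13 3.31, the serine synthesis enzyme Psat1 2.92, the GTPase-activating protein Arhgap24 2.45 and the fatty acid oxidation enzyme Echs1 1.86. The reverse pattern was led by Plxna4, a semaphorin receptor, with 400, 356, 359 and 372 CPM in WT and 133, 112, 147, 114 and 145 CPM in APP microglia. In astrocytes Plxna4 was at 39.5, 40.7, 45.3 and 43.7 CPM in WT and 64.5, 67.7, 68.4, 63.8 and 63.0 CPM in APP mice, and the genotypes did not overlap in either cell type. Serpinf1, Col6a3, the transcription factor Sox4 (-1.98), the signalling adaptor Gab1 (-1.45) and the catenin Arvcf (-1.67) followed. Selplg (-3.32) and Tifab (-4.01) were on the same list, with astrocyte levels of 0.655% and 0.603% of the microglial ones. None of the 208 genes of the first kind, and 46 of the 225 of the second, had an astrocyte level under 2% of the microglial one. Without WT replicate 1, 0 genes of the first kind and 1 of the second were called in both cell types, and 84 and 78 were with the sex term dropped too.

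Astrocyte functions such as glutamate uptake and water transport fell in 19 of 28 genes in astrocytes, with a median of -0.64, against 0.14 in microglia libraries, where astrocyte RNA was estimated at 1.11% to 5.77% of the counts. The astrocytic falls were 0 of 28 without WT replicate 1 and 9 with the sex term dropped too. The difference was called in 2 genes, S1pr1, a sphingolipid receptor (1.21), and Mfge8, a bridge for the uptake of dying cells (1.55). Neither was called without WT replicate 1 (0.75 and 0.77), nor Mfge8 without APP replicate 2, 3 or 5 (1.55 to 1.59), and the list median changed sign, to -0.14, when that WT mouse and the sex term were left out. App itself, which carries the mutations, rose in microglia by 0.42 and stood at 1.14 in astrocytes (adjusted p = 0.0987), and the difference of -0.78 was not called (adjusted p = 0.181). Its astrocyte levels were 212, 605, 560 and 195 CPM in WT and 653, 654, 635, 953 and 563 CPM in APP mice, WT replicates 1 and 4 being those with the lowest endothelial sums. C3, the central complement protein, was at 3.12 to 4.97 CPM in WT and 17.6 to 29.5 CPM in APP microglia and at 3.44 to 30.6 CPM and 40.8 to 86.4 CPM in astrocytes, with a difference of 0.96 (interval -0.36 to 2.29, adjusted p = 0.264), which was 2.13 and called without WT replicate 1. Of 22 genes of precursor processing 4 were higher and 1 lower in microglia, with a median difference of 0.19. This share is near that of all genes tested, where 24.4% were called in either direction. Aplp2, a homologue of App, had a difference of 2.18, and Ide, an amyloid-degrading protease, fell in both, by 0.66 in microglia and 1.46 in astrocytes, a difference of 0.80. The gamma-secretase subunits Psen2 (0.72) and Ncstn (0.48) were higher, and the alpha-secretase Adam10 was lower (-0.82), falling in microglia and rising in astrocytes. Without WT replicate 1 Ide (0.74), Psen2 (0.81), Ncstn (0.42) and Adam10 (-0.76) were not called, nor were Psen2 (0.72), Ncstn (0.63) and Adam10 (-0.79) without APP replicate 1.

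Of 28 genes for antioxidants, glutathione and iron 12 were higher and 4 lower, and 2 and 1 without WT replicate 1. Prdx1, a peroxide reductase, had a difference of 1.44 and the metallothionein Mt1 one of 1.86, each rising in microglia and falling in astrocytes, while Gclc, the first enzyme of glutathione synthesis, did the reverse (-0.84). Of 17 genes of the circadian clock 7 fell in microglia and 13 in astrocytes, against 4 and 0 without WT replicate 1 and 8 and 5 with the sex term dropped too. Per1, a clock repressor, had a difference of 1.34 and Hlf, a clock output factor, one of -1.33. Among heat shock genes Hsp90aa1 and Hsph1 rose in astrocytes, by 1.57 and 1.45, with differences of -1.28 and -1.70; Hsph1 was at -1.89 and -1.44 and not called without WT replicate 1 or APP replicate 1 (adjusted p = 0.0526 and 0.0535). Of 24 cytokine, chemokine and NF-kB genes 4 differences were higher and 6 lower, against 11.9% and 12.5% over all genes tested. The median difference was -0.40, and without WT replicate 1 the counts were 2 and 1. In APP astrocytes 5 of the 24 stood at under 2% of the microglial level. Among the higher ones Nfkbia, an inhibitor of NF-kB, and Nfkbiz, a nuclear cofactor of it, had differences of 1.14 and 1.04. Nfkbiz was at 0.86 (adjusted p = 0.0777) without APP replicate 1. Mertk, a receptor for the uptake of dying cells, fell in both, by 0.36 in microglia and 1.36 in astrocytes (difference 0.99; 1.01 and adjusted p = 0.0615 without WT replicate 1). Of 19 glucocorticoid receptor and target genes 3 differences were higher and 2 lower, near the 24.4% called over all genes tested. In astrocytes 1 of the 19 rose and 8 fell (median -0.35), against 0 and 0 without WT replicate 1. Unlike most of this list, the glucocorticoid-induced Fkbp5 rose in astrocytes by 0.98, with a difference of -0.98 (-0.87 and adjusted p = 0.126 without WT replicate 1).

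**Figure D5:**
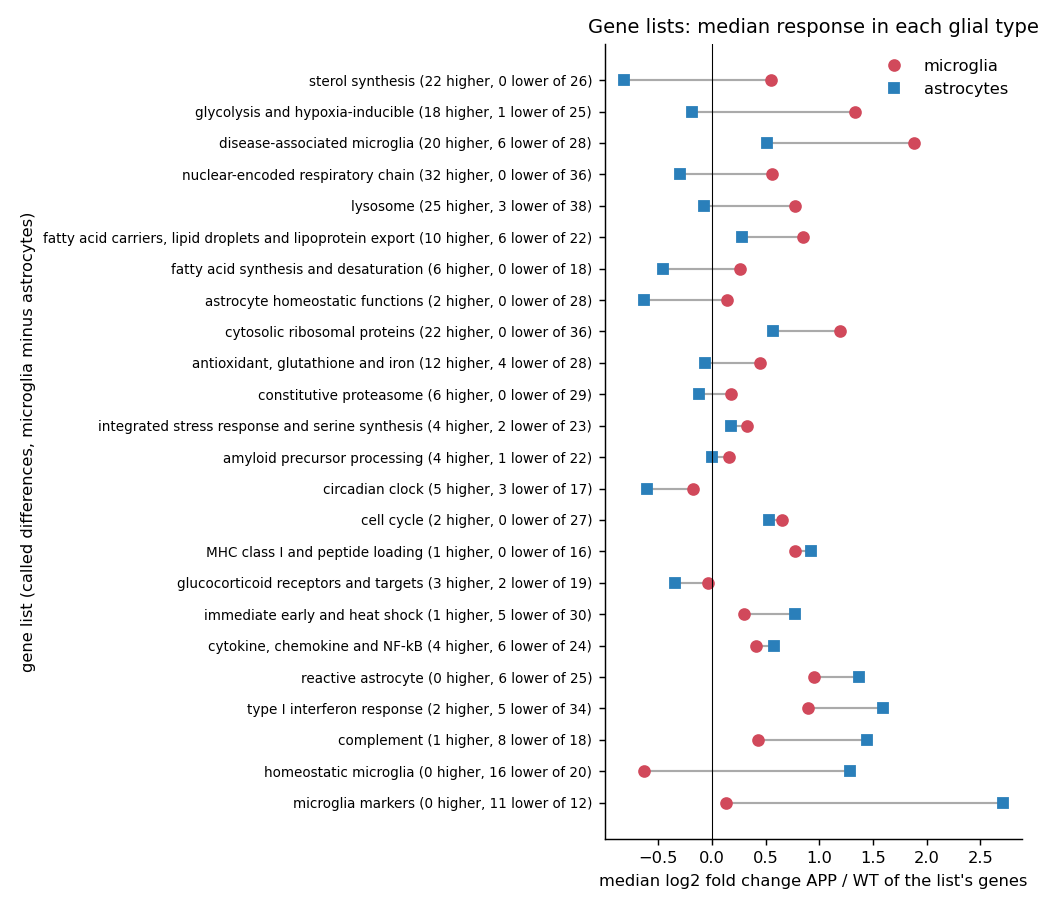
Median log2 fold change of APP over WT for each gene list in microglia (red circles) and astrocytes (blue squares), ordered by the median difference, with the called differences beside each name. Glycolysis, sterol synthesis and the genes of plaque-associated microglia lie at the end where microglia exceed astrocytes, and microglia markers at the other.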

How the data were processed

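RNA was measured in 9 microglia and 9 astrocyte libraries of the same 9 mice. Reads were handled with FastQC 0.11.8, Trimmomatic 0.39, STAR 2.7.3a and SAMtools 1.9 on mm10, per the submitters' processing notes, which also name edgeR 3.32.1 and limma 3.46.0; no source used here gives the counting program, annotation or strand setting. The authors deposited raw counts per gene for each cell type, and normalized log2 values that served only as an alternative; per the file names, outliers had been removed. Genes of overlapping or near-identical sequence may share reads.

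From the counts, R 4.3.3 and edgeR 4.0.16 (TMM, quasi-likelihood F-test, Benjamini-Hochberg) fitted the mouse, the cell type, cell type by sex and cell type by genotype for the difference, and genotype with sex in each cell type for the responses. The fit of the difference was tested on simulated data, and the fits of the responses were not. Libraries of a cell type come from separate mice, and the shared replicate number marks the mouse, so the block pairs the libraries; the deviations of paired libraries from their group means correlated at 0.0656 to 0.336, and 8 of 9 mice matched their own second library best. The RNA of the other cell type was estimated as the median ratio over its 12 markers. Alternatives changed normalization, filter, test (limma 3.58.1, DESeq2 1.42.0), covariates and libraries; list counts under them were added after the data were seen.

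Genes named were Fabp5, Hmgcs1, C3 and App, the 10 largest called differences in each direction with a mean of at least 5 CPM in each cell type and separate mice, the 8 opposite calls of lowest p in each direction, and up to 4 called members of each list (2 where none was called); the text gives a part of these, and further list members were added after their values were seen. Predicted genes and sex markers were left out, and some list members are not reported here. Members, lists and rule were chosen with earlier results of these data known. RefSeq names (GRCm38.p6) matched 12157 of 12749 genes.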

Additional observations from a re-analysis of the deposited data

Results flagged for a closer look

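The difference of the response between the cell types, tested as an interaction, was 6.22 for Fabp5 and 1.54 for Hmgcs1, so the effect of genotype on both differed between microglia and astrocytes. In 11 of 256 groups of mice 1 mouse stood apart from the others of its genotype in the microglia minus astrocyte value (log2), and chance gives about 1 in 20. In WT mice these were replicate 2 for Pmvk (-1.08) and Lipa (1.11), replicate 4 for Ebp (1.32) and replicate 1 for H2-K1 (1.14). In APP mice they were replicate 1 for Sqle (-3.73) and Cd63 (1.09), replicate 3 for Csf1 (3.64), replicate 4 for Srebf1 (-2.37) and Hif1a (2.93), and replicate 5 for Aplp2 (0.234) and Fgf13 (2.39).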

How the results depend on the processing

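Sex is unequal between the genotypes and WT replicate 1 is the only WT female, which limits every astrocytic call; depth limits the genes with few counts in 1 cell type. With 1 mouse left out, 567 to 3119 genes differed and 1 to 535 were called in opposite directions (433 with all mice). The lowest of both were without WT replicate 1, and opposite calls were 241 without APP replicate 1 and 283 without APP replicate 3. With WT replicates 1 and 4 left out, 681 genes differed and 5 were opposite; opposite calls were 77 with the sex term dropped too, and 162 without WT replicate 1 and the sex term. In males alone 0 genes differed by edgeR (1772 at an unadjusted p under 0.05), with Fabp5 at 5.85 and Hmgcs1 at 1.24. The males are 1 APP mouse and 3 WT mice, so the count of 0 cannot show that males lack a difference. The females are 4 APP mice and 1 WT mouse, and in females alone Fabp5 was at 6.92 and Hmgcs1 at 1.86. With all mice, 356 genes differed against a 2-fold threshold, and Hmgcs1 (1.54) was not among them. Without the replicate block 3474 genes differed, and Fabp5 and Hmgcs1 kept their calls. The share of calls that were higher in microglia was 48.8% and reached 57.7% with no filter on low counts and 59.1% without APP replicate 2. For the 126 other named genes over 26 settings, 2895 values kept direction and side of the threshold, 319 lost and 24 gained a call, and 24 changed sign; the cause was not tested. C3 was at -1.03 without APP replicate 1 and -1.13 in females alone. App was at 0.033 with WT replicates 1 and 4 left out and 0.16 with the sex term dropped too. Cd68 was at 0.93 after subtraction of the other cell type's RNA. Scap was at -0.0092 with no sex term, -0.0067 after subtraction, -0.15 without WT replicate 1, -0.03 without WT replicate 4, -0.28 and -0.20 without both (with and without the sex term), -0.065 without WT replicate 1 and the sex term, and -0.10 in males alone. Ebp was at 0.036 with no filter, 0.0055 with the filter of 50 counts, 0.028 with filterByExpr, 0.075 without WT replicate 4, 0.20, 0.017, 0.031 and 0.035 without APP replicates 1 to 4, 0.019 and 0.18 without WT replicates 1 and 4 (with and without the sex term), and 0.11 in females alone. With 1 mouse left out, the ranges were -1.03 to 2.13 for C3, -0.15 to 0.26 for Scap and -0.22 to 0.20 for Ebp.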
